A study of Mus musculus with 8 samples.

Results

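B cells recognise antigen through a surface immunoglobulin that signals through a pair of partner chains, and plasma cells are their antibody-secreting descendants. The 9 genes described here mark both stages: Ms4a1, Cd79a, Cd79b, Pax5 and Cd22 for B cells, Ighm for cells carrying or secreting IgM, and Igkc, Jchain and Mzb1 mainly for antibody-secreting cells. They were taken by symbol from the 33468 genes with a count in at least 1 library, each symbol gave 1 gene, and 9 of 9 passed the filter on low counts.

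The livers came from wild-type C57BL/6J mice. The control group of 4 was kept on a standard diet for 4 weeks and the DDC group of 4 ate, for the same time, a diet with 1% 3,5-diethoxycarbonyl-1,4-dihydrocollidine (DDC), an agent given to cause cholestatic injury and biliary fibrosis. Both groups were housed free of specific pathogens, and all libraries carry 1 batch label. Libraries held between 61179103 and 81664058 counts. Hepatocyte markers were abundant, with Alb, the gene of serum albumin, at 116000 ± 12900 TMM-scaled CPM (counts relative to library size, corrected for composition; SD, n = 4) in controls and 50000 ± 6350 in DDC livers.

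A healthy liver holds few B cells, chiefly in its sinusoids and portal tracts, and its lymphocytes are outnumbered by hepatocytes. Immunoglobulin transcripts are so abundant in a plasma cell that a few such cells can dominate the antibody RNA of a whole tissue. In bulk RNA, fewer cells of a type and less RNA per cell cannot be told apart.

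Of the 9 genes, Cd22 rose in DDC livers, Ms4a1, Cd79a, Ighm and Mzb1 fell, and Cd79b, Pax5, Igkc and Jchain did not pass the test. The test was edgeR's quasi-likelihood test with Benjamini-Hochberg adjustment over 19535 genes, two-sided, at an adjusted p of 0.05. Over all genes tested, 30.2% were called higher and 26.6% lower. The 1 higher and 4 lower of 9 thus stand against a background in which most genes were called one way or the other. The median log2 fold change of the 9 was -0.82, against 0.073 over all genes tested.

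The immunoglobulin data set limits on those counts. The mix of variable segments, the gene pieces that each B cell clone joins in its own way, was compared between libraries. Control 1 and Control 3 had closely alike mixes, with a Pearson r of 0.88, and so did DDC 2, DDC 3 and DDC 4, with r of 0.82 to 0.85. The other 24 pairs of libraries had r between 0.34 and 0.63. Control 1 and 3 held 15060 and 14018 segment counts and DDC 2, 3 and 4 held 10898 to 11831. Control 2, Control 4 and DDC 1 held 4057 to 6580, so each other pair within a group includes a library with fewer counts, which can lower r. Pairs of Control 1 or 3 with DDC 2, 3 or 4 had r of 0.42 to 0.54. The part of depth in r was not tested. Over all genes tested, the chi-square per degree of freedom between libraries was 13.2 for Control 1 and 3 and 16.7 to 23.9 among DDC 2, 3 and 4, against 60.0 to 212 for the other pairs within a group. Over the segments alone it was 5.54 to 7.49 in the alike pairs, more than counting noise gives, but repeat libraries of 1 animal or pool could also exceed that noise. The libraries were counted as separate samples because the labels name each as a biological replicate, and whether some share an animal or a pool was not tested. A second fit took Control 1 and 3 summed and DDC 2, 3 and 4 summed, which leaves 3 control and 2 DDC samples; its value is given beside each of the 9 genes that was called, and beside the other named genes whose call it ended. In that fit 1 of the 9 genes, Cd22, remained higher and 0 were lower at the edgeR threshold. Fewer genes of any kind were called there, 3527 higher and 3605 lower, against 5893 and 5205 with the 8 libraries apart.

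**Figure D1:**
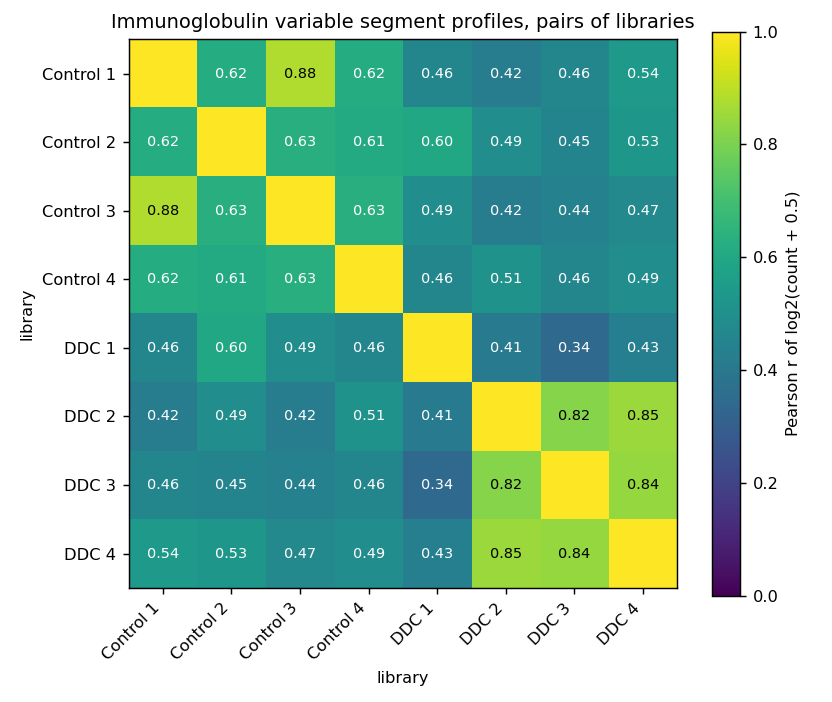
Pearson r of the variable segment mix, from log2(count + 0.5), for each pair of the 8 liver libraries, with the colour scale from 0 to 1. Control 1 with Control 3 and DDC 2, 3 and 4 with each other reach 0.82 to 0.88, and all other pairs lie at 0.34 to 0.63.

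Sequences of 2 kinds bear on these genes. RefSeq promoter windows of 300 bases (GRCm38.p6) were found for Pax5, Jchain, Cd79a and Cd22, 4 of the 9 genes. They are shown for the member that rose and for a B cell receptor member that fell, because they hold the matches found. The motifs were searched on both strands: the octamer ATGCAAAT of immunoglobulin promoters, the palindrome of the early B cell factor EBF (TCCC, any 2 bases, then GGGA), and the ETS sequence AGGAAGTG of the kind PU.1 binds. The Cd22 window, chr7:30878979-30879278 on the minus strand, holds the EBF letters starting 49 bases before the start site, a match found in 0.904% of 32851 promoter windows. The Cd79a window, chr7:24897247-24897546 on the plus strand, holds the ETS letters starting 55 bases before it, as 4.07% of windows do. The octamer, present in 1.74% of windows, was in none of the 4. The Cd22 window lies inside the gene model of the deposited table, whose upstream end is at 30880342. The deposited Cd79a gene model starts at 24897381, inside the Cd79a window, and the ETS letters lie within that gene model. Capitals mark the match.
Cd22: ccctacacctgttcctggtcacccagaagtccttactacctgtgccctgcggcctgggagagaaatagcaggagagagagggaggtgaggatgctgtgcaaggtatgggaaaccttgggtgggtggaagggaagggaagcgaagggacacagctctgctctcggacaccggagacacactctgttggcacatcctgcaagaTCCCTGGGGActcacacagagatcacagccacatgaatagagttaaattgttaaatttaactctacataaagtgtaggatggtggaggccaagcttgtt
Cd79a: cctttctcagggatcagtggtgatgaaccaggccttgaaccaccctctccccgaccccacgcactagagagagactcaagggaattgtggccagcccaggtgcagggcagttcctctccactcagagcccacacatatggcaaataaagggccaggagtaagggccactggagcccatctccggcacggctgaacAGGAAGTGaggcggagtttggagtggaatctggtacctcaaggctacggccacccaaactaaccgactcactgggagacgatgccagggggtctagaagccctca

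The other kind is a pair of kappa variable segments among the 5 most abundant segments, shown because reads of one can be counted to the other. Igkv1-117 (chr6:68121528-68121827, plus strand) and Igkv1-110 (chr6:68270968-68271267, plus strand) were compared over the last 300 bases of their variable exons, from GENCODE transcripts on GRCm38. They differ at 10 positions, in capitals, and are 96.7% identical. Values of this pair are uncertain for that reason, and whether reads were in fact assigned to the wrong segment was not tested.
Igkv1-117: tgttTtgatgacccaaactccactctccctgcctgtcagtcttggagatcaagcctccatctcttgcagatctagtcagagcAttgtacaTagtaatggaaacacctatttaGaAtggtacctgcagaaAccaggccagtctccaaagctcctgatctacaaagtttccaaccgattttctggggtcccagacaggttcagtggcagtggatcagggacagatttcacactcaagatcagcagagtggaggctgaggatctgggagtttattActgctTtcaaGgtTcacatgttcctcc
Igkv1-110: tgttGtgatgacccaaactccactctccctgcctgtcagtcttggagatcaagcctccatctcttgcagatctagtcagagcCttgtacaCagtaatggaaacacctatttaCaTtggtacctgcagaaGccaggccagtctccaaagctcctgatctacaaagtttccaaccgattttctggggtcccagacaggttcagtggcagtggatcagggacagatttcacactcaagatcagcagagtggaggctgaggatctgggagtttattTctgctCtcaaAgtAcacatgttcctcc

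Among the receptors of the B cell surface, Ms4a1 encodes CD20, a membrane protein present from the pre-B cell to the memory B cell and lost in plasma cells. It lies at chr19:11249675-11266241 on the minus strand (coordinates here and for the other 8 genes are those of the deposited table, equal to GENCODE M21 on GRCm38). Ms4a1 stood at 0.310, 0.294, 0.209 and 0.454 CPM in Control 1 to 4 and at 0.0516, 0.0592, 0.0966 and 0.0869 CPM in DDC 1 to 4. Every DDC library was below every control library, but these levels rest on 11 to 22 counts per control library and 4 to 10 per DDC library. The log2 fold change of Ms4a1 was -2.07 with a standard error of 0.54, a 4.20-fold lower level in DDC, with an edgeR adjusted p of 0.00855. With the alike libraries summed it was -2.27, with an edgeR adjusted p of 0.0691. Without both Control 1 and Control 3 it was -2.32 (edgeR adjusted p = 0.0292), and without both Control 2 and Control 4 it was -1.80 (0.0889). An antisense gene, 4930526L06Rik, overlaps Ms4a1 and held 0 to 9 counts per library.

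Cd22 encodes a sialic acid binding lectin that dampens B cell receptor signals, and it lies at chr7:30865402-30880342 on the minus strand. Its CPM was 1.26, 1.08, 1.31 and 1.18 in Control 1 to 4 and 8.04, 5.60, 4.93 and 5.84 in DDC 1 to 4. The lowest DDC library was above the highest control, and the control libraries lay close together. Cd22 was 5.05-fold higher in DDC, a log2 fold change of 2.34 with a standard error of 0.20 and an edgeR adjusted p of 8.2e-06. With the alike libraries summed it was 2.51, with an edgeR adjusted p of 0.00158. All 10 listed monocyte and macrophage markers were also higher. Their summed level was 246 to 305 CPM in controls and 1370 to 1450 CPM in DDC. Their part in the Cd22 result was not tested.

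Cd79a and Cd79b encode the Ig-alpha and Ig-beta chains, the signalling partners of surface immunoglobulin. Cd79a (chr7:24897381-24902197, plus strand) stood at 1.38, 0.549, 1.46 and 0.392 CPM in Control 1 to 4 and at 0.297, 0.331, 0.435 and 0.271 CPM in DDC 1 to 4. The groups overlapped, since DDC 3 was above Control 4, and the high controls were Control 1 and Control 3. The log2 fold change of Cd79a was -1.50 with a standard error of 0.49 and an edgeR adjusted p of 0.0264. That call was lost without Control 1 (edgeR adjusted p = 0.0747), without Control 3 (0.0813), without DDC 2 (0.0589) or without DDC 4 (0.0682), with log2 fold changes of -1.27, -1.22, -1.48 and -1.40. Summing the alike libraries gave -1.29 (edgeR adjusted p = 0.207). Without both Control 1 and Control 3 it was -0.50 (edgeR adjusted p = 0.418), and without both Control 2 and Control 4 it was -2.09 (0.00225). Both of these fits were added after the data were seen. Leaving out the highest controls brings a fall nearer to no change by construction, and leaving out the lowest does the reverse.

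Cd79b (chr11:106311341-106314762, minus strand) went the other way in value, at 0.466, 0.627, 0.628 and 0.330 CPM in Control 1 to 4 and 0.813, 0.414, 0.696 and 0.923 CPM in DDC 1 to 4. The groups overlapped through DDC 2, and the log2 fold change of 0.47 with a standard error of 0.39 did not pass (edgeR adjusted p = 0.327). Scaled to library totals alone, Cd79b passed at a log2 fold change of 1.09 (edgeR adjusted p = 0.0343). The median over all genes was 0.70 under that scaling, against 0.073 with TMM. The difference between the changes of Cd79a and Cd79b was not tested.

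Pax5, at chr4:44524757-44710487 on the minus strand, encodes the transcription factor that holds cells in the B lineage. It was at 0.155, 0.235, 0.438 and 0.0826 CPM in Control 1 to 4 and at 0.142, 0.450, 0.444 and 0.304 CPM in DDC 1 to 4. The groups overlapped widely, and with 4 to 46 counts per library the log2 fold change of 0.55 with a standard error of 0.62 was not detectable at this depth (edgeR adjusted p = 0.464). Genes on the opposite strand within Pax5 held up to 62 counts (Gm12462) and 53 counts (4930517J16Rik) in a library. The sources used here do not say if reads were counted by strand, and such reads may be shared.

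Ighm (chr12:113418558-113422730, minus strand) encodes the constant region of IgM, the first class a B cell makes. It stood at 15.8, 9.45, 14.6 and 7.95 CPM in Control 1 to 4 and at 8.62, 4.00, 3.36 and 2.68 CPM in DDC 1 to 4. DDC 1 alone reached into the control range, and the other DDC livers were below every control. Ighm was 2.57-fold lower in DDC, a log2 fold change of -1.36 with a standard error of 0.39 and an edgeR adjusted p of 0.0155. The call was lost without DDC 2 at a log2 fold change of -1.27 (edgeR adjusted p = 0.0516) and without DDC 3 at -1.20 (0.0528). The summed fit gave -0.86 (edgeR adjusted p = 0.221), and without Control 1 and Control 3 it was -0.90 (0.14). Without Control 2 and Control 4 it was -1.72 (edgeR adjusted p = 0.0182).

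Igkc (chr6:70726435-70726966, plus strand) encodes the constant region of the kappa light chain and was the most abundant of the 9 genes per length. It stood at 224, 93.4, 229 and 108 CPM in Control 1 to 4 and at 36.8, 116, 104 and 115 CPM in DDC 1 to 4. Control 1 and Control 3 were about level with each other and above all others, DDC 1 was the lowest, and Control 2, Control 4 and the other DDC livers lay close together. The log2 fold change of -0.82 with a standard error of 0.45 did not pass (edgeR adjusted p = 0.156).

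Jchain, which encodes the chain that joins IgA and IgM units into polymers, had a similar order of libraries (chr5:88519809-88527891, minus strand). Its level was 52.3, 21.5, 43.6 and 22.7 CPM in Control 1 to 4 and 10.5, 28.9, 25.6 and 26.8 CPM in DDC 1 to 4. Control 1 and Control 3 were again the highest and DDC 1 the lowest, and the log2 fold change of -0.61 with a standard error of 0.40 did not pass (edgeR adjusted p = 0.231). Under library totals alone the value was 0.02 where the median over all genes was 0.70, so the sign of the Jchain value did not hold across scalings.

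Mzb1 encodes an endoplasmic reticulum chaperone that helps assemble and secrete IgM, and lies at chr18:35647267-35649367 on the minus strand. It was at 2.85, 1.35, 2.49 and 1.55 CPM in Control 1 to 4 and at 0.336, 0.746, 0.618 and 0.923 CPM in DDC 1 to 4. Every DDC library was below every control, and DDC 1 was the lowest. Mzb1 was 3.14-fold lower in DDC, a log2 fold change of -1.65 with a standard error of 0.39 and an edgeR adjusted p of 0.00526. The same value with the alike libraries summed was -1.76 (edgeR adjusted p = 0.0522), and it was -1.15 without Control 1 and Control 3 (0.0697). Without Control 2 and Control 4 it was -2.03 (edgeR adjusted p = 0.00393). A neighbour on the same strand, SPATA24, overlaps Mzb1 and held 0 to 30 counts.

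**Figure D2:**
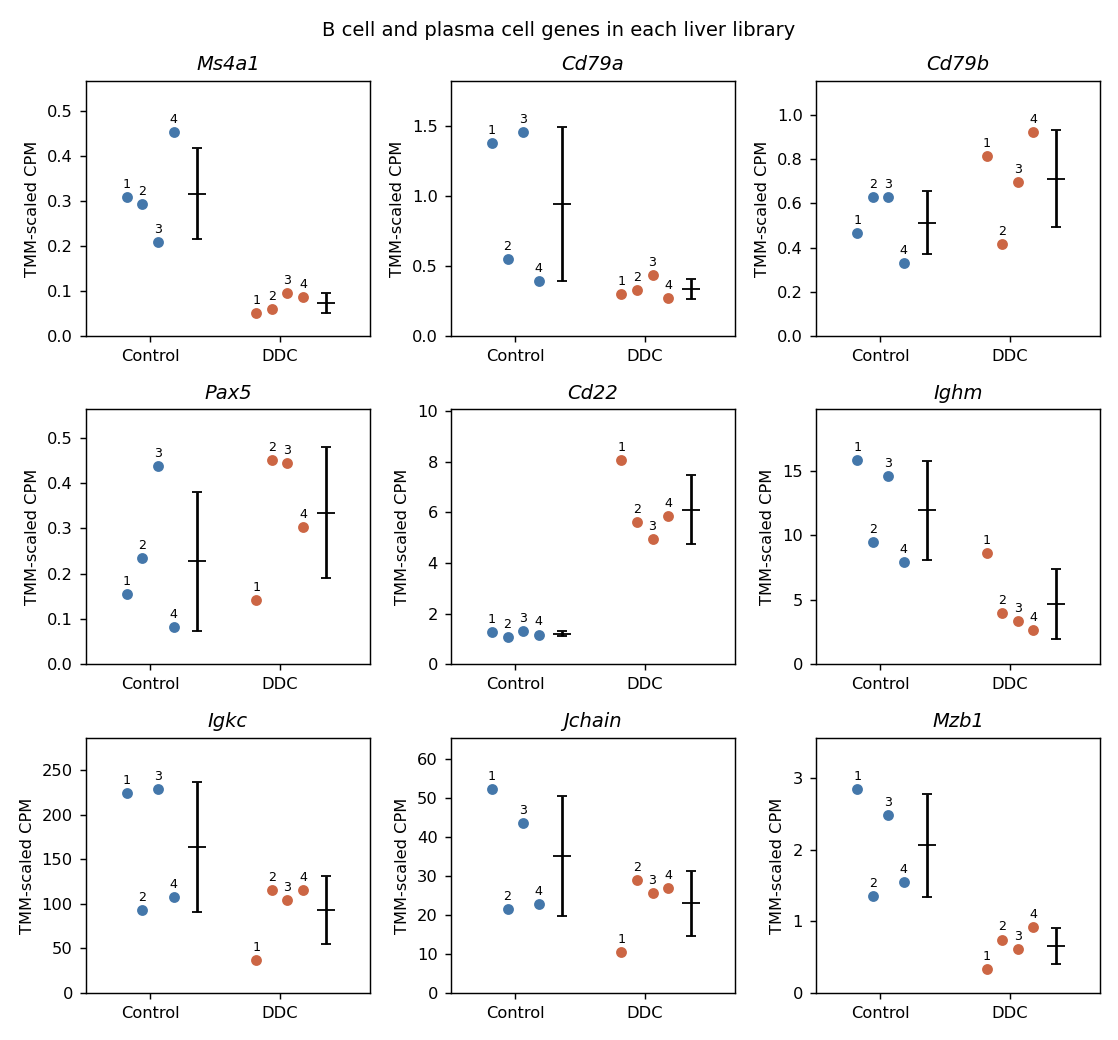
TMM-scaled CPM of each of the 9 genes in the 4 control (blue) and 4 DDC (red) libraries, with library numbers and, in black, the group mean and SD; each panel has its own axis from 0. The groups are apart for Ms4a1, Mzb1 and Cd22 and overlap for the other 6 genes, and Control 1 and 3 are the highest libraries for Igkc, Jchain, Mzb1, Cd79a and Ighm.

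Of the 9 genes, 1 had every DDC library above every control (Cd22) and 2 had every DDC library below (Ms4a1 and Mzb1). Over all genes tested, 26.9% were separated upward and 25.7% downward.

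Per length, in the deposited FPKM (fragments scaled by gene length and library depth), the order of control levels began with the antibody genes, Igkc at 240 ± 108 (SD, n = 4), Jchain at 10.8 ± 4.77 and Ighm at 4.93 ± 1.60 FPKM. Mzb1 followed at 1.31 ± 0.465 FPKM. The genes of the B cell surface and Pax5 were lower, with Cd79a at 0.503 ± 0.297, Cd79b at 0.274 ± 0.0792, Cd22 at 0.184 ± 0.0164, Ms4a1 at 0.0381 ± 0.0131 and Pax5 at 0.0197 ± 0.0131 FPKM. In that order the libraries of Cd79a and Cd79b overlapped, as did those of Cd79b and Cd22 and those of Ms4a1 and Pax5, and other neighbours did not.

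In DDC livers the FPKM levels ran from Igkc at 209 ± 85.5 and Jchain at 10.9 ± 4.02 through Ighm at 2.93 ± 1.66 and Cd22 at 1.44 ± 0.303 to Mzb1 at 0.634 ± 0.243. Cd79b stood at 0.589 ± 0.190, Cd79a at 0.268 ± 0.062, Pax5 at 0.0443 ± 0.0196 and Ms4a1 at 0.0132 ± 0.00536 FPKM. Cd22 was the seventh of the 9 in controls and the fourth in DDC livers. Libraries of neighbouring genes overlapped for Jchain and Ighm, Ighm and Cd22, Mzb1 and Cd79b, Cd79b and Cd79a, and Pax5 and Ms4a1.

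The 9 genes did not vary as 1 block. As a description over 8 libraries that share their 2 groups, log2(CPM + 0.1) of Jchain and Igkc had a Pearson r of 0.99, and r stayed 0.99 for deviations from the group means. Mzb1 followed Igkc in the same way, with r of 0.96 for those deviations. Ms4a1 and Cd22 had r of -0.95 over all libraries and -0.47 within groups. Ighm tracked Igkc with r of 0.31 over all libraries and -0.26 within groups.

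The genes elsewhere in the table whose log2 CPM was most like that of Igkc were Arf5, Tspan4 and Selenbp1, with r of 0.972, 0.970 and 0.967 over 8 libraries. Those most like Ms4a1 were Ube2w, Dnajc11 and Ypel3, with r of 0.998, 0.991 and 0.988. For Cd22 they were Ctsd, Srxn1 and Clec1b, with r of 0.998, 0.998 and 0.997. Each list is the top of all genes with a mean of at least 1 CPM, and with so many genes searched over 8 libraries values near 1 are common.

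The other immunoglobulin constant genes were lower where they passed. Of the 9 tested, 0 were higher, 4 were lower (Ighg3, Ighd, Ighg2b and Iglc1) and 5 did not pass, with a median log2 fold change of -1.44. Ighd, the IgD constant region carried by naive B cells, fell 4.06-fold, from 0.811 ± 0.425 to 0.199 ± 0.0187 CPM (SD, n = 4, edgeR adjusted p = 0.00364). Ighg2b, an IgG constant region, went from 113 ± 54.5 to 38.1 ± 14.6 CPM, a log2 fold change of -1.57 (edgeR adjusted p = 0.0177). Without Control 1 and Control 3 that value was -0.81 and not called (edgeR adjusted p = 0.125). Ighg3 was at 1.98, 1.94, 2.42 and 1.30 CPM in Control 1 to 4 and at 0.155, 1.03, 0.058 and 0.141 CPM in DDC 1 to 4 (edgeR adjusted p = 0.0234). Iglc1, a lambda light chain constant region, fell 2.72-fold (edgeR adjusted p = 0.00114). Scaled to library totals alone, Ighg2b and Ighg3 lost their calls at edgeR adjusted p of 0.0849 and 0.055. In the summed fit Ighd and Ighg2b lost theirs, at 0.0547 and 0.0897, with log2 fold changes of -1.90 and -1.64. Ighg3 also lost its call without Control 1 and Control 3, at -2.23 against -2.47 (edgeR adjusted p = 0.113). Ighg2b and Ighg2c are closely related genes, and the sources used here do not say how the counting divided their reads.

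Igha, the constant region of the mucosal antibody IgA, was the 1 constant gene with a log2 fold change above 0. It stood at 115, 57.8, 103 and 69.7 CPM in Control 1 to 4 and at 52.7, 115, 108 and 119 CPM in DDC 1 to 4. The groups overlapped and the log2 fold change was 0.20 with a standard error of 0.31 (edgeR adjusted p = 0.603). Under library totals alone it was 0.82 (edgeR adjusted p = 0.0438), close to that scaling's median over all genes of 0.70.

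Shares within a library do not depend on that scaling. Igha took 23.1, 26.6, 20.9 and 30.0% of heavy chain constant counts in Control 1 to 4 and 54.0, 44.8, 48.7 and 49.4% in DDC 1 to 4. Every DDC library was above every control, and the means were 25.2% ± 3.96 and 49.2% ± 3.78 (SD, n = 4). The exact two-sided permutation p was 0.0286, the smallest that 70 assignments allow, and 0.0857 after Benjamini-Hochberg adjustment over the 3 shares tested, so the difference of 24.0 percentage points, higher in 4 of 4 DDC livers, did not pass. The Igha share was chosen after its values were seen. With the alike libraries summed, it was 22.0, 26.6 and 30.0% in the 3 control samples and 54.0 and 47.6% in the 2 DDC samples.

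The IgG classes together took 71.1% ± 4.31 of heavy chain counts in controls and 47.4% ± 7.21 in DDC livers. Ighm took 3.18, 4.35, 2.99 and 3.42% in Control 1 to 4 and 8.83, 1.56, 1.51 and 1.11% in DDC 1 to 4. DDC 1 was above and the other DDC livers below every control. The share of all switched classes, IgG, IgA and IgE together, was 96.3% ± 0.621 and 96.6% ± 3.78. A difference between these means was not detected (exact permutation p = 1.0), and the test does not compare the spreads. DDC 2, 3 and 4 stood above every control, at 98.4, 98.4 and 98.8%, and DDC 1 below every control, at 91.0%. Without DDC 1 the difference was 2.24 points (exact permutation p = 0.0571, the smallest that 3 against 4 allow). The lambda share of light chain constant counts was 5.55% ± 1.54 and 5.45% ± 1.68 (exact permutation p = 0.857).

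**Figure D3:**
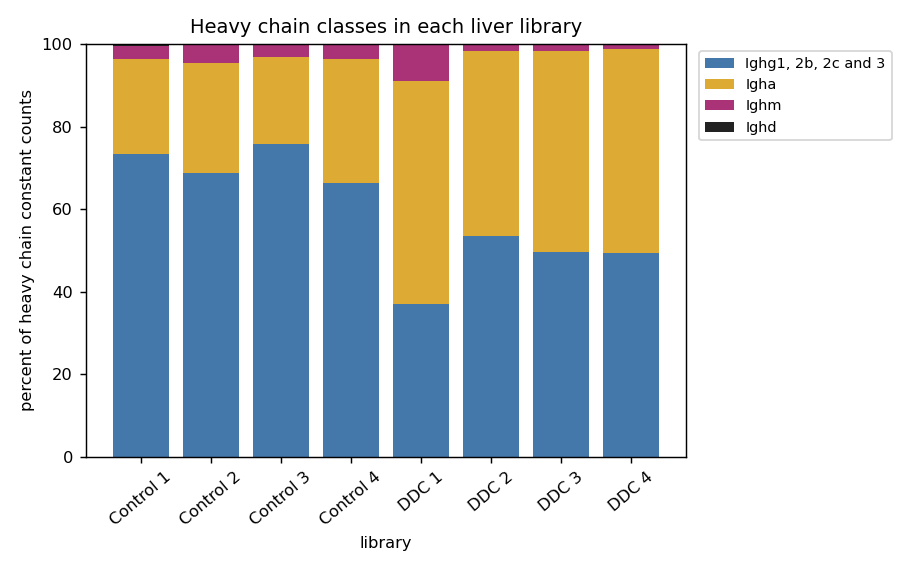
Percent of heavy chain constant counts taken by the IgG genes (blue), Igha (yellow), Ighm (purple) and Ighd (black, at most 0.29%) in each of the 8 liver libraries, as stacked bars from 0 to 100. Igha takes 20.9 to 30.0% in controls and 44.8 to 54.0% in DDC livers, and Ighm takes 8.83% in DDC 1.

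All 239 immunoglobulin genes together reached 1038, 453.4, 1012 and 481.3 CPM in Control 1 to 4 and 193.2, 527.9, 445.7 and 487.0 CPM in DDC 1 to 4. Control 1 and Control 3 stood at about the same high level, and Control 2, Control 4, DDC 2, DDC 3 and DDC 4 formed a middle band above DDC 1. Of 212 variable segments in the table, 140 were tested; 1 (Ighv1-31) was higher, 50 were lower and 89 did not pass, with a median log2 fold change of -1.09, where 26.6% of all genes tested were lower. Without Control 1 and Control 3, the libraries with the most immunoglobulin, 2 of 150 segments fitted were higher and 14 lower, with a median of -0.34. In the summed fit 0 of 145 segments were higher and 15 lower with a median of -1.20. Ighv1-31 lost its call there, at a log2 fold change of 2.77 against 2.91 with all libraries (edgeR adjusted p = 0.143). Under library totals alone 5 of 140 were higher and 22 lower, all at the edgeR threshold. Over all genes, 5180 were higher and 4659 lower without Control 1 and Control 3. The summed fit had 3527 and 3605, and library totals alone 11505 and 1750.

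The 10 most used segments held 23.3 to 24.7% of segment counts in controls and 27.9 to 29.2% in DDC livers, and the most used single segment took at most 6.97% in any library. Igkv10-96 was the most abundant segment on average, at 6.74 ± 4.32 CPM in controls and 6.81 ± 3.22 in DDC livers (SD, n = 4). It took 1.94 to 3.89% of segment counts in controls, 4.31% in DDC 1 and 6.64 to 6.97% in DDC 2 to 4. Iglv1 fell 2.03-fold, with an edgeR adjusted p of 0.0171. Ighv3-6 took 0.666% of segment counts in DDC 1 and 2.61 to 3.59% in every other library. Igkv1-117 and Igkv1-110, the pair printed above, fell 2.21-fold and 2.95-fold (edgeR adjusted p of 0.0175 and 0.0199). Iglv1, Igkv1-117 and Igkv1-110 each lost the call with the alike libraries summed, at log2 fold changes of -0.98, -1.17 and -1.33 (edgeR adjusted p of 0.0936, 0.119 and 0.186). Without Control 1 and Control 3 the values were -0.45, -0.56 and -0.33, against -1.02, -1.15 and -1.56 with all libraries, and none of the 3 was called.

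Of 102 other genes of B cell biology tested, 47 were higher, 22 lower and 33 did not pass, with a median log2 fold change of 0.49. The same over all genes tested was 30.2% higher, 26.6% lower and a median of 0.073, and the counts of each list that follow are to be read against those shares. No test compared the lists with each other.

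Surface receptors of B cells moved both ways, with 9 of 18 tested higher, 2 lower and 7 not passed. Cd180, a Toll-like receptor relative also found on macrophages and dendritic cells, rose 12.5-fold, from 1.22 ± 0.244 to 15.3 ± 1.71 CPM (edgeR adjusted p = 2.26e-07). Cd83, an activation marker shared by B cells and dendritic cells, rose 8.10-fold and Cd40, which receives T cell help, rose 6.58-fold. These named genes are all from those called higher. Of 22 listed receptors 18 were tested, since Fcer2a, Cxcr5, Fcmr and Fcrl5 did not pass the filter on low counts. The monocyte and macrophage markers rose in the same libraries, as given beside Cd22, and their part was not tested.

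Transducers of the B cell receptor were mostly higher, with 15 of 17 tested called higher and 0 lower. The kinases Btk and Syk rose 4.81-fold and 4.48-fold (edgeR adjusted p of 0.000233 and 1.25e-07), and the exchange factor Vav1 rose 4.64-fold. Blood cells of other lineages use Btk, Syk and Vav1 too, and the monocyte and macrophage markers rose in the same libraries, as given beside Cd22. Their part was not tested.

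Of 15 transcription factors of the B lineage, 6 were higher, 4 were lower and 5 did not pass. Spi1, which encodes PU.1 of B cells and myeloid cells, rose 5.88-fold from 6.25 ± 0.243 to 36.7 ± 1.20 CPM (edgeR adjusted p = 1.77e-08). Ikzf1 rose 3.61-fold and Irf8 rose 2.73-fold. Foxo1, a regulator of early B cells that hepatocytes also use in glucose metabolism, fell 3.46-fold from 91.6 ± 8.08 to 26.5 ± 2.34 CPM (edgeR adjusted p = 2.21e-07). Hepatocyte markers fell beside it, 5 of 5 tested, and their part was not tested.

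Plasma cell genes were 5 of 19 higher, 8 lower and 6 not passed. Slamf7, a receptor of plasma cells and other leukocytes, rose 7.76-fold to 10.3 ± 0.889 CPM, and Prdm1, which encodes Blimp-1, the repressor that drives plasma cell fate, rose 5.83-fold to 3.66 ± 0.784 CPM. Cd38 rose 2.91-fold. Ell2, an elongation factor that favours secreted immunoglobulin transcripts, fell 3.74-fold from 152 ± 15.6 to 40.6 ± 3.36 CPM. Hepatocyte markers fell in the same libraries, 5 of 5 tested with a median log2 fold change of -1.22, and their part in the lower plasma cell genes was not tested. The monocyte and macrophage markers rose, 10 of 10 tested, and their part in the higher plasma cell genes, Prdm1 among them, was not tested either. Tnfrsf17, which encodes the plasma cell receptor BCMA, had 22 counts in Control 3, 12 in Control 4 and 0 in each other library, and was not tested.

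Genes of early and germinal centre B cells were 3 of 7 higher, 1 lower and 3 not passed. Vpreb3, which encodes an immunoglobulin-like protein of the B lineage, stood at 0.582, 0.647, 1.71 and 0.186 CPM in Control 1 to 4 and at 0, 0.142, 0.058 and 0 CPM in DDC 1 to 4. Every DDC library was below every control, DDC 1 and DDC 4 had no count, and the log2 fold change was -3.92 with a standard error of 1.12 (edgeR adjusted p = 0.0142). The summed fit gave Vpreb3 a log2 fold change of -4.10, which was not called (edgeR adjusted p = 0.0626), and without Control 1 and Control 3 it was -3.02 (0.124). Mybl1, a transcription factor of germinal centre B cells, rose 8.45-fold, Cd93, shared by early B cells, endothelium and myeloid cells, rose 5.53-fold, and S1pr2, which confines B cells to germinal centres, rose 1.78-fold.

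Survival and homing factors were 5 of 11 higher, 1 lower and 5 not passed. Tnfsf13b, which encodes the B cell survival factor BAFF, rose 2.61-fold from 0.644 ± 0.246 to 1.69 ± 0.261 CPM (edgeR adjusted p = 0.006). Ltb, the membrane subunit of lymphotoxin, rose 9.21-fold and Cxcr4, the receptor of Cxcl12, rose 4.18-fold. Il7 rose 6.99-fold (edgeR adjusted p = 0.0139), with a log2 fold change of 2.80. It was 2.51 and not called in the summed fit (edgeR adjusted p = 0.171). Cxcl12, the ligand that retains plasma cells in bone marrow, fell 1.86-fold from 431 ± 4.66 to 232 ± 16.4 CPM (edgeR adjusted p = 2.49e-06).

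Among genes that carry or bind antibody, 4 of 7 were higher, 2 lower and 1 did not pass. The Fc receptors Fcgr1, Fcgr3 and Fcgr4 rose 10.5-fold, 8.32-fold and 5.16-fold, and their signalling chain Fcer1g rose 5.62-fold. All 10 monocyte and macrophage markers rose in the same libraries, with a median log2 fold change of 2.73. Pigr, the receptor that moves polymeric IgA and IgM into bile, fell 4.28-fold from 1550 ± 73.6 to 363 ± 20.7 CPM (edgeR adjusted p = 4.2e-08). Fcgrt, the neonatal Fc receptor that protects IgG from breakdown, fell 2.85-fold from 218 ± 10.6 to 76.6 ± 2.50 CPM (edgeR adjusted p = 7.93e-08). The hepatocyte markers fell beside Pigr and Fcgrt, and the part of either marker list was not tested.

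**Figure D4:**
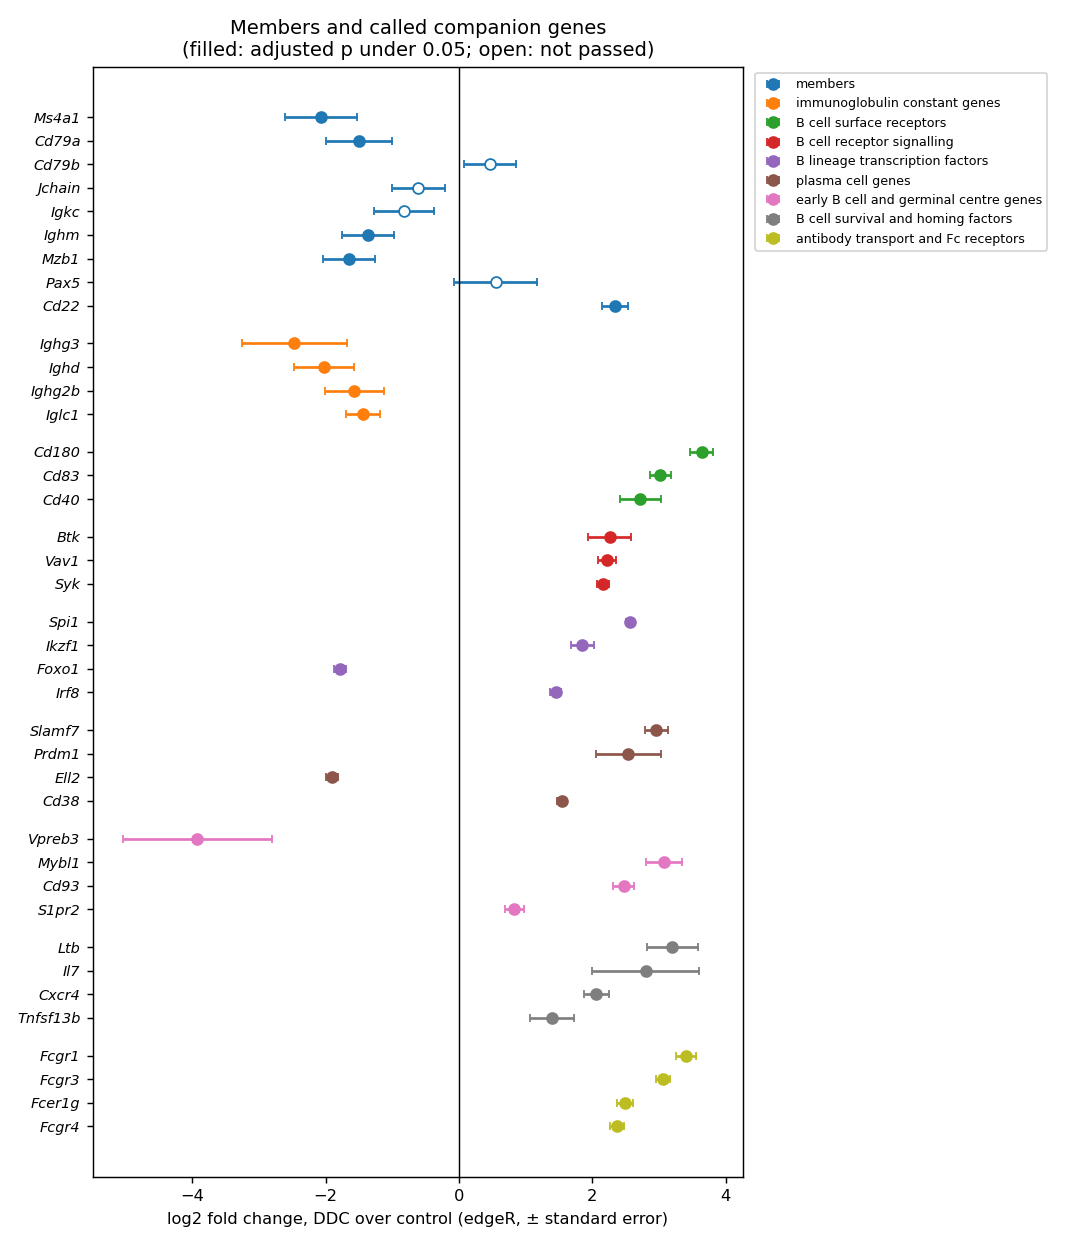
Log2 fold change, DDC over control, with its standard error, for the 9 genes (top) and for up to 4 called genes of each related list, coloured by list; filled points passed an adjusted p of 0.05 and open points did not. The 4 constant genes and Foxo1, Ell2 and Vpreb3 lie below 0 with the 4 of the 9 genes called lower and, as open points, Igkc and Jchain. The other called points lie above 0 with Cd22.

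Markers of other blood cells give a setting for these values. T and NK cell markers were 6 of 15 higher and 0 lower, with summed levels of 8.34 to 12.1 CPM in controls and 19.1 to 23.1 in DDC livers; Lck, a T cell kinase, rose 1.79-fold (edgeR adjusted p = 0.0116, and 0.115 with the alike libraries summed). In that summed fit 2 of 16 T and NK cell markers were higher and 0 lower, and 3 of 11 red blood cell and platelet genes were lower. Over all genes that fit called 3527 higher and 3605 lower. Plasmacytoid dendritic cell markers were 3 of 7 higher and 1 lower (Bst2, at a log2 fold change of -0.52 against the median of 0.073, and of 0.10 against 0.70 under library totals alone), and summed to 116 to 129 and 83.4 to 108 CPM; Siglech, the defining one, was not tested at 0.113 ± 0.0566 and 0.118 ± 0.0352 CPM. Granulocyte and mast cell markers were 3 of 5 higher, summing to 17.8 to 22.5 and 32.9 to 70.3 CPM, with S100a9 2.68-fold higher. Lymph node stroma markers were 1 of 5 higher and 0 lower, at 65.6 to 81.0 and 72.1 to 79.7 CPM, mostly from Ltbr at 68.9 ± 6.18 and 71.4 ± 4.61. Red blood cell and platelet genes were 1 of 9 higher and 7 lower, at 824 to 1020 and 295 to 712 CPM, and Hbb-bs, a beta globin, fell 1.95-fold (edgeR adjusted p = 0.015, and 0.175 with the alike libraries summed). Genes at 0 in every library were left out before the markers were looked up, so a marker found had a count by construction. The part of blood or of these cells in the fall of Ms4a1, Cd79a, Ighm and Mzb1 was not tested.

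The scaling bears on every direction given. With library totals alone the median over all genes was a log2 fold change of 0.70, against 0.073 with TMM, and 11505 genes were called higher and 1750 lower in place of 5893 and 5205. The change of scaling moves all genes by about the same amount. Sides relative to each scaling's own median were therefore nearly fixed in advance and are no support for any of the 9 genes. With library totals alone, 2 of the 9 genes were higher (Cd22 and Cd79b) and 2 lower (Ms4a1 and Mzb1). Cd79a and Ighm were not called there, at edgeR adjusted p of 0.146 and 0.108.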

How the data were processed

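Liver RNA of 4 control and 4 DDC mice was measured by polyadenylated, dUTP-based RNA sequencing, per the labels' protocols. The deposited counts are whole numbers per gene, not normalized (55401 genes), and the deposited FPKM values (33467 genes) divide the authors' counts by gene length and library depth. Per the submitters' processing notes the tools include cutadapt, FastQC, HISAT2, StringTie and DESeq2, on GRCm38 and mm10. Library depth was 61179103 to 81664058 counts; intervals and errors from counts cover these libraries only.

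Genes were tested with edgeR 4.0.16 (R 4.3.3): TMM, filterByExpr, robust quasi-likelihood fits over all 8 libraries, no covariate, Benjamini-Hochberg adjustment over 19535 genes. limma 3.58.1 and DESeq2 1.42.0 gave alternatives. Shares were tested by exact two-sided permutation over 70 assignments. The scripts were tested on simulated data. Genes outside the 9 were named by rule: up to 4 called genes per list with the largest log2 fold change at a mean of at least 0.5 CPM, the most abundant gene of each other cell type's list, and the 5 most abundant variable segments. Pigr, Fcgrt, Cxcl12, Igha, Tnfrsf17, Siglech, Ighv1-31, Fcer2a, Cxcr5, Fcmr and Fcrl5 were chosen after their values were seen or moved against their list. The members and lists were chosen with earlier results of these data known. Ighg2a, Iglc4, Cd209d, Glycam1, Fdcsp and Tf are not analysed here. The results of 2 genes that the rule names are not reported here.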

Additional observations from a re-analysis of the deposited data

Results flagged for a closer look

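Dixon's gap ratio was computed for 118 groups of 4 libraries and exceeded its critical value in 9, where chance gives about 1 in 20. In DDC livers Igkc had a ratio of 0.841, with DDC 1 far below the others at 36.8 CPM. The same library set the switched share (0.942), the Ighm share (0.942) and the Ighd share (0.936) of heavy chain counts apart, with 91.0% switched, 8.83% Ighm and 0.185% Ighd. Ighg3 had a ratio of 0.900 in DDC, where DDC 2 was high at 1.03 CPM. Slamf7 had a ratio of 0.838 in DDC, where DDC 4 was high at 11.6 CPM. Among controls, Cd180 had a ratio of 0.959 with Control 1 low at 0.854 CPM, Irf8 0.905 with Control 3 high at 10.5 CPM, and Fcgr3 0.893 with Control 4 high at 13.1 CPM.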

How the results depend on the processing

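Cd22 was called higher in each of the 22 alternatives run, with log2 fold changes from 1.03 to 2.96, and Mzb1 was lower and called in 20 of 22. Ms4a1 kept its call in 16 of 21, Ighm in 14 of 22 and Cd79a in 9 of 21. Igkc stayed below 0 in all 22 and was called in none. The cause of the changes below was not tested.

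With library totals alone, genes called were 11505 higher and 1750 lower, 2 of the 9 higher and 2 lower, and 10 of the B lineage genes outside the 9 (companion genes) were lower; with the top 20 genes left out of the totals, 11052 and 1891, 2 and 2, and 10. limma on log2(FPKM + 0.1) gave 11976 and 1826 genes, 2 of the 9 higher and 1 lower, and 11 companion genes lower; with a pseudocount of 1 the numbers were 11987, 1815, 2, 1 and 11. Jchain reversed to 0.02 under library totals alone and to 0.01 and 0.02 in limma, and was -0.03 with the top 20 genes left out. It was 0.05 without Control 1 and Control 3, where 1 of the 9 was lower. Without Control 2 and Control 4 it was -1.07, and there 3 of the 9 were lower. Both of these fits were chosen after seeing the data. A filter of 1 CPM in 4 libraries, which drops Cd79a, Cd79b, Ms4a1 and Pax5, left 2 of the 9 lower. With the alike libraries summed (chosen after seeing the data), 3527 genes were higher and 3605 lower, with 0 of the 9 lower and 13 companion genes lower.

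Same-numbered libraries did not deviate together (r of -0.215, -0.184, 0.0292 and -0.0466), and differently numbered ones had r of -0.135 to 0.187. These values show no pairing by number but cannot show that there was none. With the replicate block 2 of the 9 were lower, since Ms4a1 (adjusted p = 0.0549) and Cd79a (0.0717) lost their calls, and the Igha share had an exact p of 0.125, the smallest that 4 pairs allow, at 24.0 points.

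Leaving out 1 library at a time gave 5039 to 6228 genes higher and 4593 to 5532 lower, 1 of the 9 higher and 2 to 4 lower, 45 to 49 companion genes higher and 17 to 23 lower. The switched share difference ran from -0.372 to 2.24 points, the lambda share from -0.908 to 0.656, and the Igha share from 22.4 to 25.6, with exact p of 0.0571, the smallest that 3 against 4 allow. Ms4a1, Cd79a, Cd79b and Pax5 rest on 4 to 85 counts per library, which limits how small a change of theirs could be seen.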
